A study of Mus musculus with 4 samples.

Results

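The deposited table of mouse small RNA lists 140 mature microRNA (miRNA) entries whose names end in neither -5p nor -3p, among 982 entries in all. They were chosen by a rule on names, set with earlier results of these data known. The rule took entries written with a capital R and no arm suffix. Numbers that belong to Hox-linked, muscle, blood-cell, endothelial or Dlk1-Dio3 miRNAs were set aside (1 entry of the table). The other entries were 736 with an arm suffix, 104 named after a hairpin and 1 with another form of name.

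The small RNA came from interstitial cells of Cajal (ICC), the pacemaker cells of gut muscle, sorted for a green fluorescent reporter of Kit, the receptor that marks them. All mice were C57BL/6, 11 to 20 weeks old, and carried 1 KitcopGFP allele (KitcopGFP/+). Mice of genotype Lepob/ob, which make no working leptin and are called diabetic in the labels, were compared with Lepob/+ mice, which the labels call both healthy and wild type although they carry 1 ob allele. There were 4 libraries, 1 each from ob/ob jejunum, ob/+ jejunum, ob/ob colon and ob/+ colon, and each pooled material of 1 genotype (15 each), so no group has a replicate. A difference within a tissue is therefore a difference between pools, and its interval covers counting error only.

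A miRNA is cut from the stem of a hairpin, and either strand of the stem can be loaded into an Argonaute protein, where bases 2 to 8, the seed, pair with target messengers. The suffixes -5p and -3p say which strand an entry is. Entries with no suffix are those for which the database lists 1 strand, and some of them were later questioned because their letters also occur in repeats, transfer RNA (tRNA) or small nucleolar RNA (snoRNA).

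Sequences were taken from RefSeq (GRCm38.p6), whose table holds 117 of the 140 entries. The counts themselves were made by the authors on mm9, so the positions below are those of RefSeq only. The first set is shown because its letters occur in the spliced transcripts of many other genes or because the entry was higher in ob/ob cells. Capitals mark the seed.
miR-3470b: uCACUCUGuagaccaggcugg
miR-1195: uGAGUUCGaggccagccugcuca
miR-3472: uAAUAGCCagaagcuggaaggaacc
miR-3473b: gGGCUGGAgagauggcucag
miR-3473e: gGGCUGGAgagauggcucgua
miR-3473f: cAAAUAGGacuggagagaug
miR-690: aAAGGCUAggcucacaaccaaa
miR-703: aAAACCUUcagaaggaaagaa
miR-3470b lies at chr16:44013885-44013905 on the plus strand, within Gramd1c. miR-1195 lies at chr17:70860558-70860580 on the minus strand and overlaps no other RefSeq gene. miR-3472 lies at chrX:145039390-145039414 on the plus strand, within Rtl4. miR-3473b and miR-3473e lie within Ccdc162 on chromosome 10 and Rbks on chromosome 5, and share a seed and a run of 18 bases. miR-690 lies within Fgf12 on chromosome 16 and miR-703 within Cfap299 on chromosome 5. Overlaps with other genes, here and below, were taken by position without regard to strand, so such a gene may lie on the other strand.

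The second set is shown for short runs of letters. In it 2 entries, miR-3968 and miR-5100, hold a run that occurs in tRNA, and miR-3535 holds snoRNA box letters. miR-3963 lacks the full tRNA run, but shares a run of 8 bases with miR-3968 and one of 6 with miR-5100. In the first 3 sequences capitals mark AUCCCA, and in miR-3535 they mark UGAUGA, the CUGA that follows it at once and a later CUGA.
miR-3963: uguAUCCCAcuucugacac
miR-3968: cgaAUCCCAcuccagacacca
miR-5100: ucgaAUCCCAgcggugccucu
miR-3535: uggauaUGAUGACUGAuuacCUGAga
The letters CGAAUCC, which occur in the T arm of many tRNAs, were found on the mature strand of miR-3968 and miR-5100, and of no other of the 1674 mature sequences in the table (0.119%). AUCCCA, which in these 2 sequences overlaps CGAAUCC, was found in 7 of the 1674 (0.418%), 3 of them the entries shown. UGAUGA, a form of the C box of snoRNAs, was found in 12 of the 1674 (0.717%), and a UGAUGA followed later by CUGA, the D box, in 2 (0.119%). RefSeq places miR-3535 at chr1:86352062-86352087 on the minus strand within Gm24148, itself inside Ncl, the gene of nucleolin. RefSeq types Gm24148 as a miRNA gene, whereas GENCODE vM21 types it as a snoRNA gene. miR-1983 (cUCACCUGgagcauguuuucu, seed in capitals, chr13:21896930-21896950, minus strand) overlaps the tRNA gene n-TItat14.

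The third set, with the seed in capitals again, shows miRNAs of families that are also named in human.
miR-484: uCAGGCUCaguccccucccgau
miR-378c: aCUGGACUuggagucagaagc
miR-378d: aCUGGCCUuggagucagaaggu
miR-484 is known in heart muscle cells for limiting mitochondrial fission through Fis1. miR-378c and miR-378d share a run of 14 bases, and their seeds differ. Of the 117 entries with a sequence, 21 share a seed with another entry of the table, and these 117 use 112 distinct seeds.

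The entries were rare. Their counts summed to 2570 in ob/ob jejunum, 1721 in ob/+ jejunum, 1811 in ob/ob colon and 1953 in ob/+ colon. All 140 were above 0 in at least 1 library, 39 of them in all 4 and 54 in only 1. Over the 4 libraries together 107 entries had at most 10 counts and 14 had over 100. Between 78.0% and 86.7% of the entries' counts in a library belonged to its 10 most abundant ones.

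The libraries held 433201 and 267077 miRNA counts in ob/ob jejunum and colon, against 466335 and 716476 in ob/+ jejunum and colon. These counts were 12.3% and 10.6% of all mappable reads in ob/ob jejunum and colon, against 22.5% and 26.3% in ob/+. The other mappable reads, which the table does not list, were thus 87.7% and 89.4% in ob/ob and 77.5% and 73.7% in ob/+. Marker miRNAs of several cell types also differed, whereas endothelial ones overlapped. The summed CPM (counts per 1000000 miRNA counts) of 8 of 8 epithelial markers was 337 to 346 in ob/ob and 825 to 1962 in ob/+, and that of 4 of 5 fibroblast markers 937 to 1056 in ob/ob and 4510 to 4593 in ob/+. The 7 of 9 leukocyte markers in the table summed to 1288 to 1406 CPM in ob/ob and 659 to 738 in ob/+. Smooth muscle miRNAs (miR-143-3p and miR-145a-5p) summed to 279779 to 326127 CPM in ob/ob and 188964 to 229957 in ob/+. No listed marker sum was at 0, and the part of these differences in the results below was not tested. In such bulk libraries fewer cells of a type and less RNA per cell cannot be told apart.

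As a share of the miRNA counts, the entries without a suffix were higher in ob/ob cells of both tissues. They took 0.593% of the counts in ob/ob jejunum (exact binomial 95% interval 0.571 to 0.617), against 0.369% in ob/+ jejunum (0.352 to 0.387). The colonic shares were 0.678% in ob/ob (0.647 to 0.710), against 0.273% in ob/+ (0.261 to 0.285). The ratio of ob/ob over ob/+ was 1.61 in jejunum and 2.49 in colon. Set over all mappable reads, the same counts came to 732 RPM (counts per 1000000 mappable reads) in ob/ob jejunum (704 to 761) and 832 in ob/+ jejunum (793 to 872). In colon they came to 721 RPM in ob/ob (688 to 755) and 716 in ob/+ (685 to 749). On this second scale ob/ob was 0.880 times ob/+ in jejunum and 1.01 times in colon, while the entries with an arm suffix stood at 0.545 and 0.401 times. Hairpin-named entries followed the same course as the entries without a suffix, with a share 1.72 and 2.64 times as high in ob/ob, and 0.940 and 1.07 times over mappable reads.

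**Figure D1:**
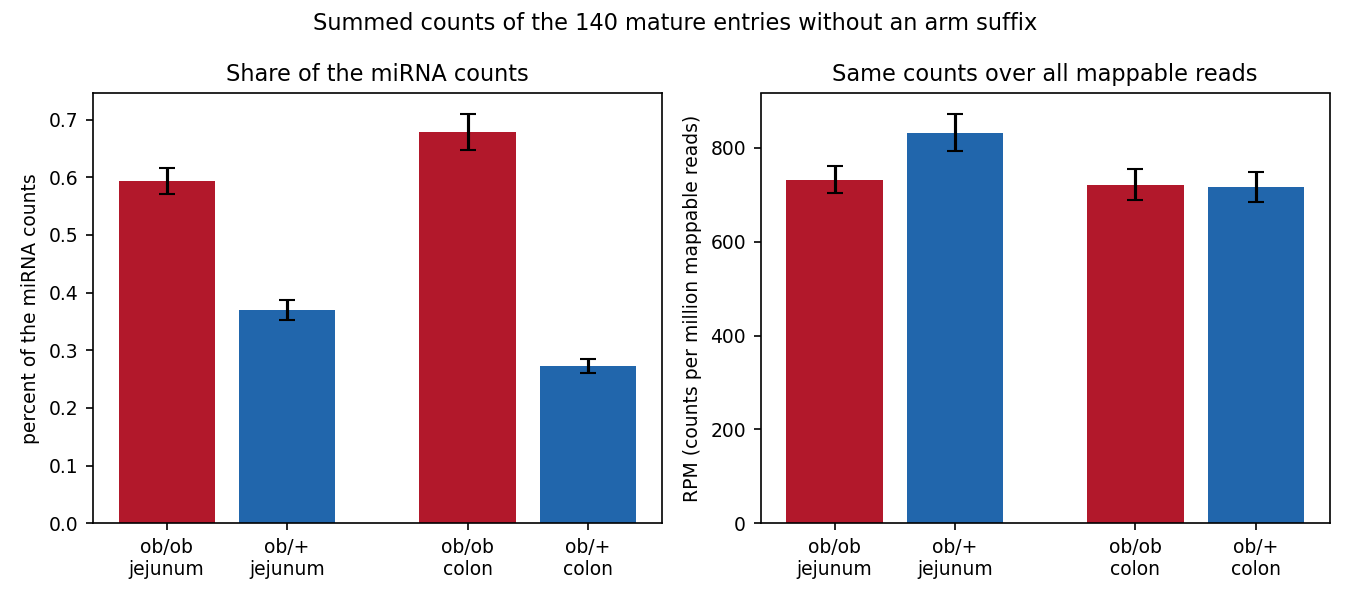
Summed counts of the 140 entries in each library, as a percentage of the miRNA counts (left) and per 1000000 mappable reads, or RPM (right); bars are single pooled libraries and error bars exact binomial 95% intervals. The share was 0.593% and 0.678% in ob/ob jejunum and colon against 0.369% and 0.273% in ob/+, while the 4 libraries lay between 716 and 832 RPM.

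The genotype effect over both tissues asked which entries differed between leptin-deficient and heterozygous mice. Tested were the 322 entries that averaged 10 CPM or more after scaling by trimmed mean of M-values (TMM), and 26 of the 140 were among them. Of these 26, 8 were called higher in ob/ob and 0 lower with edgeR's quasi-likelihood test (adjusted p under 0.05, Benjamini-Hochberg over the 322). Over the 322, 7.76% were called higher and 10.2% lower. At an unadjusted p under 0.05, 14 of the 26 were higher (20.2% of the 322) and 0 lower (also 20.2%). DESeq2 called 7 of the 26 higher (10.2% of the 322) and 0 lower (9.01%). limma-voom called 4 higher (4.04%) and 0 lower (6.52%). The 4 were miR-1194, miR-3470b, miR-3472 and miR-703, and the 7 of DESeq2 held miR-3963 and miR-5099 but not miR-703, miR-1195 or miR-3473f. In the main fit the median log2 change of the 26 was 1.01, against -0.12 over all 322 and -0.21 over the 282 with an arm suffix. Fits with 1 library left out had no tissue term, and the number called changed with the library. Their median log2 change of the 26 was 0.85 without ob/ob jejunum (-0.15 over all 322) and 0.95 without ob/ob colon (0.02). It was 1.47 without ob/+ jejunum (-0.03) and 0.64 without ob/+ colon (-0.002). Of the 13 hairpin-named entries tested, 5 were called higher. In 16 of the 26, both ob/ob libraries were above both ob/+ libraries (32.9% of all 322), and in 2, miR-2137 and miR-378c, both were below (37% of all 322). The test has 1 residual degree of freedom, and each SE is the log2 change divided by the square root of F, which is no spread between replicates.

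By their first 18 bases, 5 of the 8 called entries also match transcripts of genes other than miRNA genes, miR-3473f matches none, and for 2 (miR-1194 and miR-3470a) no sequence was used here. Of all tested entries with a sequence, 38.1% of those without a suffix and 31.5% of those with one match at least 1 such gene. miR-3470b was the most abundant of the 8. It had 370 counts in ob/ob jejunum and 293.5 in ob/ob colon, against 112.5 in ob/+ jejunum and 105 in ob/+ colon. In TMM-scaled CPM these were 878 and 926 in ob/ob, against 256 and 159 in ob/+. The CPM of single entries below are TMM-scaled too, whereas the marker sums above are not. Both ob/ob libraries were far above both ob/+ libraries, and the tissues gave similar levels within ob/ob. The change was 4.45-fold (log2 2.16 ± 0.29 SE, edgeR adjusted p = 0.0170). Taken by tissue, the log2 ratio of ob/ob over ob/+ was 1.76 for jejunum, with an exact 95% interval of 1.47 to 2.10, and 2.51 for colon, with one of 2.21 to 2.87.

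miR-3470a, its relative by name, had 71 and 44 counts in ob/ob jejunum and colon, against 24 and 15 in ob/+. It rose by 2.06 ± 0.39 on the log2 scale (edgeR adjusted p = 0.0311). The groups did not overlap, with 139 to 168 CPM in ob/ob and 22.8 to 54.8 CPM in ob/+. How reads were divided between the 2 entries is not known. The hairpin-named rows of this pair stood higher too. mir-3470b had 88.5 and 67 counts in ob/ob, against 28 and 20 in ob/+ (log2 2.22 ± 0.39, edgeR adjusted p = 0.0290), and mir-3470a had 35 and 28, against 18.5 and 6 (1.93 ± 0.60, adjusted p = 0.0862, not past the threshold).

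miR-3472 had 34 and 26 counts in ob/ob jejunum and colon, against 7 and 11 in ob/+. It rose by 2.29 ± 0.37 (edgeR adjusted p = 0.0230), and the log2 ratios of both tissues were close, 2.06 (1.14 to 3.75) in jejunum and 2.03 (1.23 to 3.46) in colon. miR-1195 had 19 and 13 counts in ob/ob, against 6 and 5 in ob/+. It rose by 2.03 ± 0.47 (edgeR adjusted p = 0.0475), and ob/ob and ob/+ levels did not overlap, at 40.9 to 45.1 CPM in ob/ob and 7.59 to 13.7 CPM in ob/+.

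miR-1194 had 36 and 29 counts in ob/ob, against 10 and 12 in ob/+ (log2 2.11 ± 0.37, edgeR adjusted p = 0.0290). Its hairpin-named row was called as well, with 15 and 7 counts in ob/ob and 1 and 2 in ob/+ (3.23 ± 0.66, edgeR adjusted p = 0.0343). That row passed the filter of 10 CPM only through the ob/ob libraries, so its call is no separate support. miR-3473f had 16.7 and 15.5 counts in ob/ob, against 4.92 and 6.17 in ob/+ (2.14 ± 0.46, edgeR adjusted p = 0.0396). Of the entries numbered 3473 that were tested it was the one called.

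miR-703 rests on few counts. It had 17 and 4 in ob/ob jejunum and colon, against 1 and 0 in ob/+. At 2.28 and 0 CPM in ob/+, it passed the filter of 10 CPM only through ob/ob, at 40.3 and 12.6 CPM. The fitted log2 change of 4.33 ± 0.87 (edgeR adjusted p = 0.0343) depends on how the 0 is treated. In jejunum the log2 ratio was 2.75 with an interval of 1.47 to 9.53. In colon the 4 ob/ob counts stood 2.77-fold above a floor of 3 counts in the ob/+ library, a value that leaves out their own counting error. The exact lower bound of the colonic log2 ratio was 0.45. The mature sequence is held by transcripts of 1 gene that is no miRNA gene, Eef1a1, which makes an abundant elongation factor of translation.

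miR-690, reported in mice as a cargo of macrophage exosomes that raises insulin sensitivity, had 365 and 334 CPM in ob/ob jejunum and colon, against 189 and 141.2 CPM in ob/+. The change was 2.13-fold (log2 1.09 ± 0.26), and its edgeR adjusted p of 0.0497 was close to the threshold. Its ratios were similar in both tissues, 0.93 (0.55 to 1.35) in jejunum and 1.22 (0.83 to 1.66) in colon. Its sequence is held in full by 16 annotated miRNA genes of GENCODE vM21 and by 3 other genes, among them Fundc2.

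**Figure D2:**
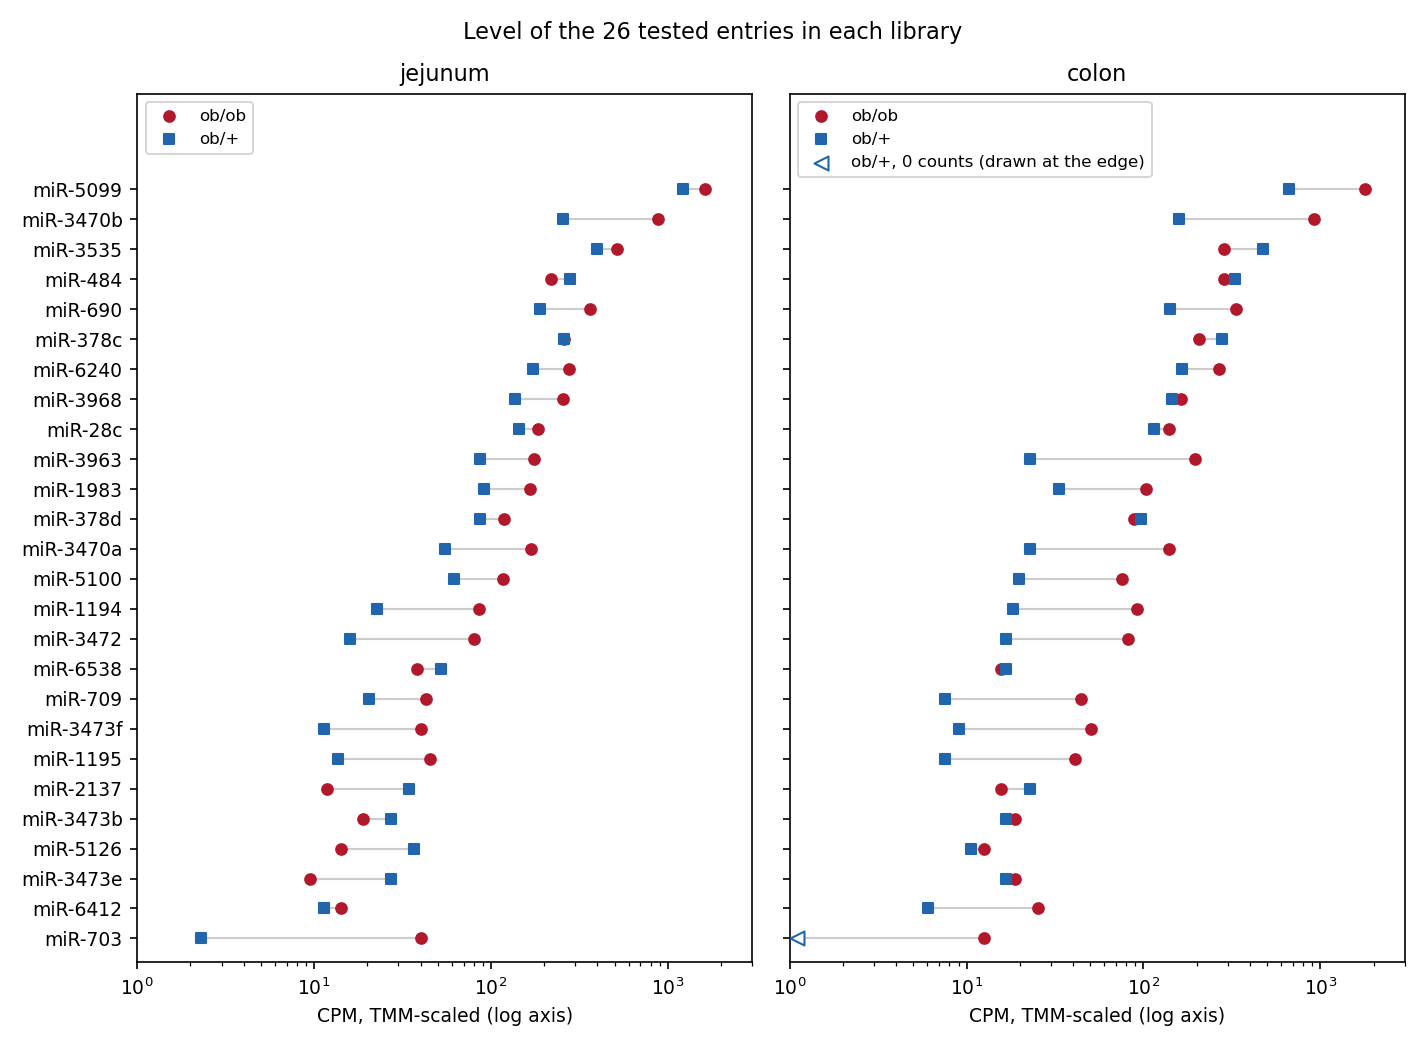
TMM-scaled CPM (log axis) of the 26 tested entries in each library, ordered by mean level, with ob/ob as circles and ob/+ as squares; the arrowhead marks 0 counts. miR-3470b stands at 878 CPM in ob/ob jejunum and 926 in ob/ob colon, against 256 and 159 in ob/+, while miR-484 and the miR-378 entries lie close together.

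Of the 18 tested entries that were not called, the most abundant was miR-5099. It had 684 and 569 counts in ob/ob jejunum and colon, against 535 and 436 in ob/+, or 1623 and 1792 CPM against 1221 and 662 CPM. The change of 0.92 ± 0.31 did not pass (edgeR adjusted p = 0.0984). By tissue it stood 0.41 higher on the log2 scale for jejunum (0.25 to 0.58) and 1.43 higher for colon (1.25 to 1.62).

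Of miR-3963, miR-3968, miR-5100 and miR-1983, edgeR called none with TMM scaling, while DESeq2 called miR-3963. miR-3963 had 176 and 195 CPM in ob/ob jejunum and colon, against 86.7 and 22.8 CPM in ob/+ (log2 1.93 ± 0.56, edgeR adjusted p = 0.0764). The jejunal log2 ratio was 0.98 and the colonic one 2.88, where the ob/+ library held 15 counts. miR-1983 had 166 and 104 CPM in ob/ob, against 91.3 and 33.4 CPM in ob/+ (1.20 ± 0.35, edgeR adjusted p = 0.0767). miR-5100 had 116 and 75.6 CPM in ob/ob, against 61.6 and 19.7 CPM in ob/+ (1.34 ± 0.40, edgeR adjusted p = 0.0805). miR-3968 had 256 and 164 CPM in ob/ob, against 137 and 146 CPM in ob/+ (0.54 ± 0.31, edgeR adjusted p = 0.260). In all 4 both ob/ob libraries were above both ob/+ libraries.

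miR-3535, whose gene GENCODE types as a snoRNA gene, had 515 CPM in ob/ob jejunum and 283 CPM in ob/ob colon, against 399 and 474 CPM in ob/+. The jejunal log2 ratio was 0.36 (0.07 to 0.66) and the colonic one -0.73 (-1.10 to -0.40), so the direction was not shared, and the change over both tissues was -0.17 ± 0.34 (edgeR adjusted p = 0.735). The ratio was positive in one tissue and negative in the other for 5 of the 26, and at least 2-fold in opposite directions for 0.

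The miRNAs of families named in human as well were not called on this scale. miR-484 had 218 and 283 CPM in ob/ob jejunum and colon, against 281 and 331 CPM in ob/+ (log2 -0.29 ± 0.25, edgeR adjusted p = 0.424). miR-378c had 259 and 205 CPM in ob/ob, against 260 and 279 CPM in ob/+ (-0.22 ± 0.27, edgeR adjusted p = 0.580). miR-378d had 119 and 88.2 CPM in ob/ob, against 86.7 and 97.1 CPM in ob/+ (0.16 ± 0.33, edgeR adjusted p = 0.735). miR-378b, too rare to be tested, brought the 3 members of that number to 161 and 93 counts in ob/ob jejunum and colon, against 152 and 251 in ob/+. These sums are not scaled, and the colon libraries held 267077 miRNA counts in ob/ob and 716476 in ob/+. miR-28c had 185 and 139 CPM in ob/ob, against 143.7 and 115 CPM in ob/+, and its change was 0.32 ± 0.28 (edgeR adjusted p = 0.439).

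miR-3473b and miR-3473e did not follow miR-3473f. miR-3473b had 7.62 and 6.28 counts in ob/ob jejunum and colon, against 12.2 and 10.8 in ob/+ (log2 -0.21 ± 0.49, edgeR adjusted p = 0.762). miR-3473e had 4.42 and 5.58 counts in ob/ob and the same 12.2 and 10.8 in ob/+ as miR-3473b (-0.64 ± 0.62, adjusted p = 0.485). The values are fractional and equal in both ob/+ libraries, and the sequences share a run of 18 bases, so how reads were divided between the 2 rows is uncertain. The 6 entries numbered 3473 summed to 34.8 and 31.4 counts in ob/ob, against 31.7 and 29.2 in ob/+, not scaled to the unlike library totals.

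The other entries not called were miR-709, miR-6412, miR-6240, miR-6538, miR-5126 and miR-2137. miR-709, reported in mouse cells to act in the nucleus on the processing of other miRNAs, had 18 and 14 counts in ob/ob jejunum and colon, against 9 and 5 in ob/+ (log2 1.69 ± 0.53, edgeR adjusted p = 0.0890). miR-6240 had 117 and 85 counts in ob/ob, against 76 and 109 in ob/+ (0.69 ± 0.25, edgeR adjusted p = 0.114). Its hairpin-named row was far more abundant and was called higher, with 1027 and 571 counts in ob/ob and 327 and 311 in ob/+ (1.82 ± 0.21, edgeR adjusted p = 0.0112). miR-2137, whose groups did not overlap in the other direction, had 5 counts in each ob/ob library and 15 in each ob/+ library (-1.04 ± 0.52, edgeR adjusted p = 0.200). miR-6412, miR-6538 and miR-5126 had at most 23 counts in any library, with log2 changes of 1.19 ± 0.68, -0.34 ± 0.41 and -0.77 ± 0.61. The 114 entries not tested had 140 and 91.0 counts in ob/ob jejunum and colon, against 91 and 97 in ob/+, or 40.0 and 36.2 RPM against 44.0 and 35.6.

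Within jejunum 7 of the 26 differed by 2-fold or more upward in ob/ob (14.6% of all 322) and 3 by as much downward (18%). Within colon 14 did so upward (17.1%) and 0 downward (17.4%). The median log2 ratio of the 26 was 0.75 in jejunum and 1.32 in colon, against 0.02 and -0.21 over all 322. Every entry at least 2-fold higher in jejunum was so in colon too, and the 7 that passed 2-fold in colon alone were miR-690, miR-709, miR-1983, miR-3963, miR-5099, miR-5100 and miR-6412. With 1 pool for each tissue and genotype, the difference between tissues was not tested.

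**Figure D3:**
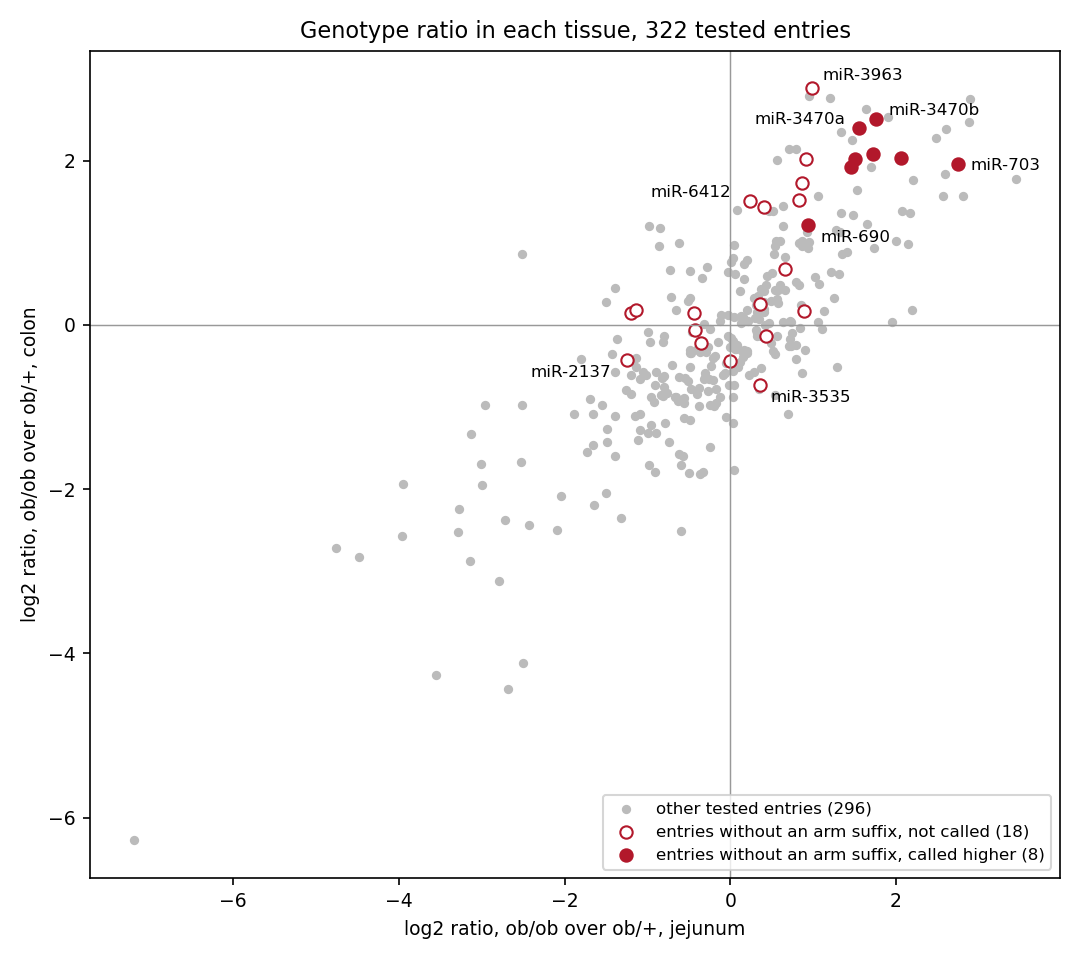
Log2 ratio of ob/ob over ob/+ in jejunum (x axis) and colon (y axis) for the 322 tested entries, with the 8 called entries without an arm suffix as filled circles, the other 18 as open circles and all other entries in grey. The 8 called entries lie at the upper right, and miR-3963 stands at 0.98 in jejunum and 2.88 in colon.

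Set against all mappable reads instead of the other miRNAs, part of these results differed. Scaled to mappable reads, the median log2 change of all tested entries was -1.02 and that of the 26 was 0.13. On this scale 6 of the 26 were called higher (5.59% of 322) and 4 lower (49.7% of 322). In 10 of the 26 both ob/ob libraries were above both ob/+ libraries in RPM (13% of 322), and in 10 both were below (68% of 322). Those called higher were miR-3470b (1.28, edgeR adjusted p = 0.000199), miR-3472 (1.42, 0.0186), miR-1194 (1.23, 0.0335), miR-3470a (1.19, 0.0161), miR-703 (3.58, 0.0128) and miR-3963 (1.07, 0.0230). miR-3473f (1.27, adjusted p = 0.0912), miR-1195 (1.16, adjusted p = 0.127) and miR-690 (0.22, adjusted p = 0.577) were no longer called. miR-690 stood at 43.9 and 42.0 RPM in ob/ob jejunum and colon, against 40.1 and 34.0 in ob/+.

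Those lower on this scale were miR-484 (log2 -1.17, edgeR adjusted p = 0.00126), miR-378c (-1.10, 0.00292), miR-3535 (-1.05, 0.00257) and miR-2137 (-1.90, 0.0126). miR-484, for example, stood at 26.2 and 35.8 RPM in ob/ob jejunum and colon, against 59.5 and 79.9 in ob/+. miR-3470b stood at 105 and 117 in ob/ob, against 54.4 and 38.5 in ob/+, and was thus higher on both scales. miR-5099 stood at 195 and 227 in ob/ob, against 259 and 160 in ob/+, so its order differed between the tissues. Which of the 2 scales is closer to the amount per cell was not tested.

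**Figure D4:**
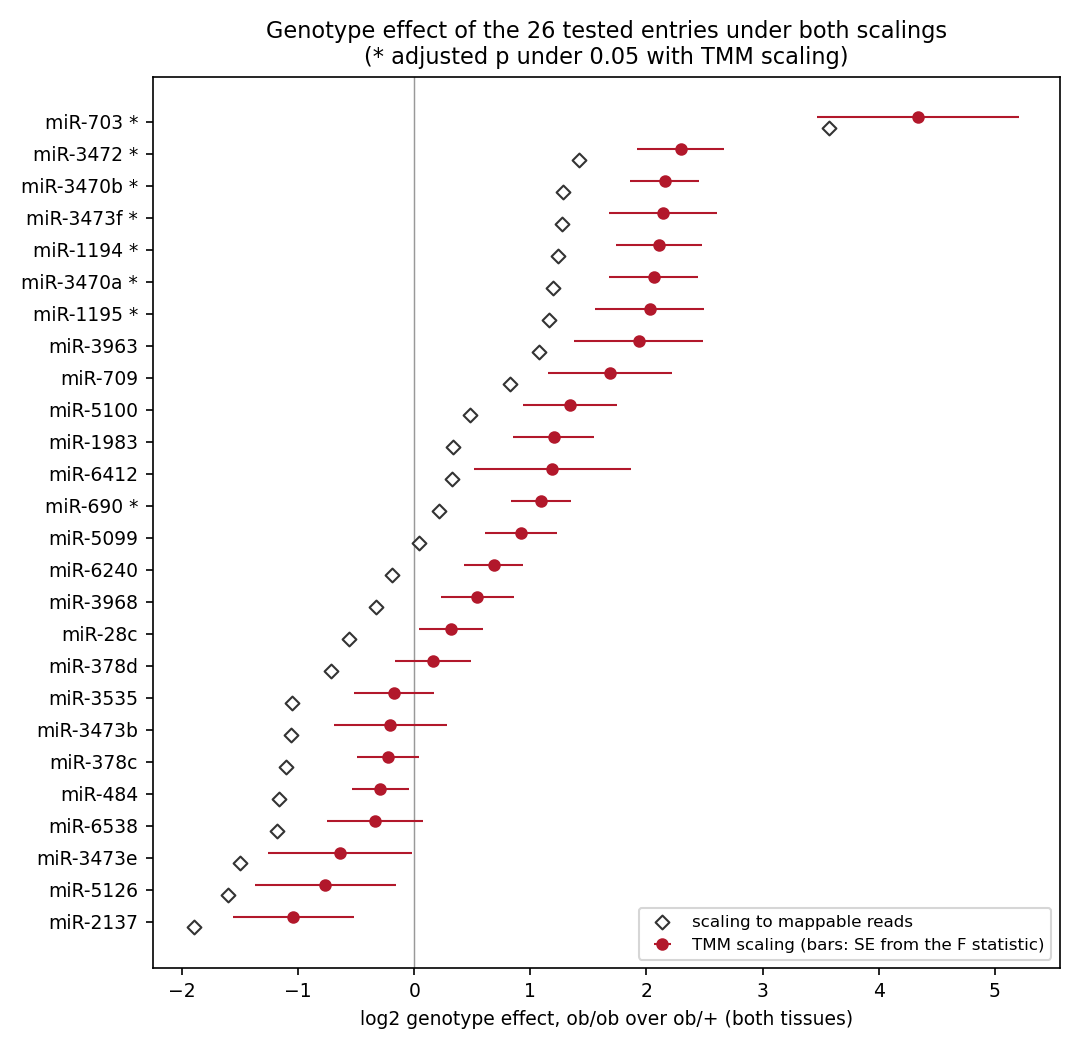
Log2 genotype effect over both tissues of the 26 tested entries with TMM scaling (circles, with the SE from the F statistic) and scaled to mappable reads (diamonds). miR-3470b is at 2.16 and 1.28, and miR-484 at -0.29 and -1.17.

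The called entries were set against the number of genes whose transcripts hold their letters. Transcripts of 55450 GENCODE vM21 genes were scanned, and hits in miRNA genes were left out. The full sequence of miR-3470b occurred on the sense strand of transcripts of 546 genes, and its complement in those of 497. miR-3473b occurred in 344 genes, and among the entries not tested miR-706 occurred in 208 and miR-3473a in 146. Of the 117 entries with a sequence, 5 occurred in at least 10 genes, against 0 of the 626 entries with an arm suffix, whose highest number was 3. By the first 18 bases alone miR-1195 matched 613 genes, miR-3473e 402 and miR-3472 85. The 5 tested entries matching at least 10 genes in this way were split. miR-3470b, miR-1195 and miR-3472 rose by 2.16, 2.03 and 2.29, while miR-3473b and miR-3473e had -0.21 and -0.64 and were not called. miR-3473f matched 0 genes and rose by 2.14.

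**Figure D5:**
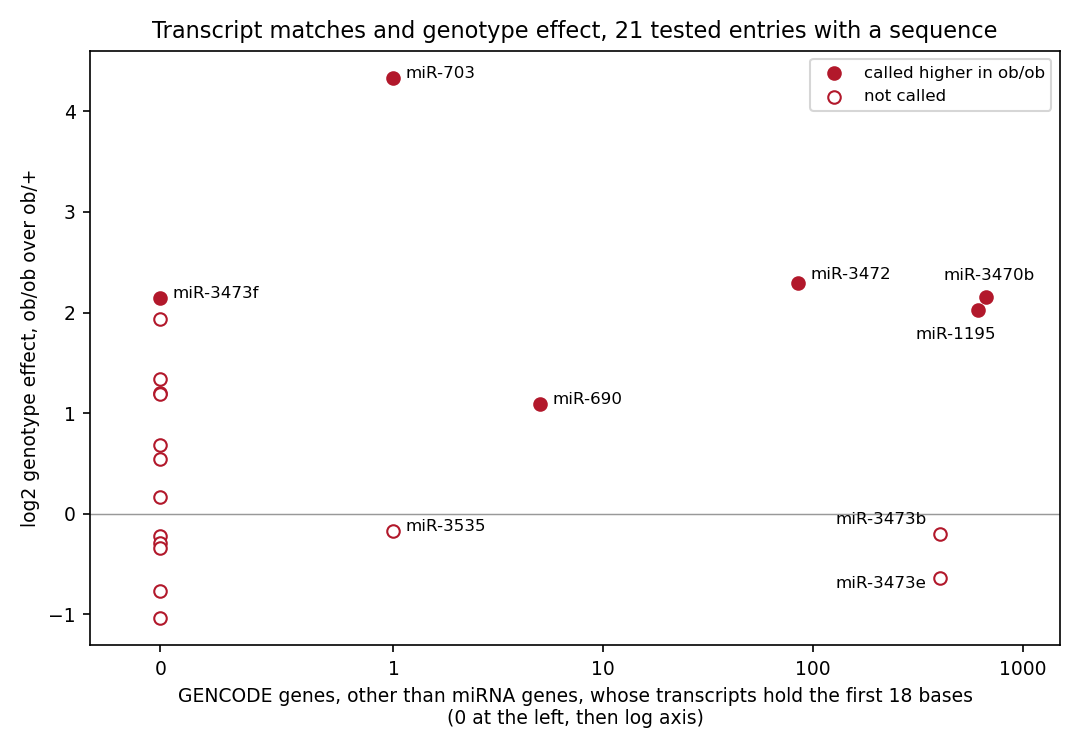
Log2 genotype effect (y axis) of the 21 tested entries with a sequence against the number of genes other than miRNA genes whose spliced transcripts hold their first 18 bases (x axis, 0 at the left and then logarithmic); filled circles were called higher in ob/ob. miR-3470b (664 genes), miR-1195 (613) and miR-3472 (85) were called, and miR-3473b and miR-3473e (402 each) were not.

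Fractional values, which a table can hold when 1 read is divided among several entries, were counted as a description of how the rows were made. Of 326 values above 0, 68 were not whole (20.9%, within 1e-06), against 186 of 2012 (9.24%) in entries with an arm suffix. They fell in 26 of the 140 entries, miR-690, miR-378c, miR-3473f, miR-3473b and miR-3473e among them. Of the 137 entries with a RefSeq miRNA gene, 93 overlapped a protein-coding gene on either strand and 32 no other gene.

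The tissue effect asked which entries differed between colon and jejunum over both genotypes. Of the 26, 0 were called in either direction with edgeR (0% of the 322), and 0 by DESeq2 or limma-voom. At an unadjusted p under 0.05, 3 were lower in colon with edgeR (4.04% of the 322). With limma-voom 3 were lower (3.55% of the 282 entries with an arm suffix), and with DESeq2 0 (2.13% of the 282). The 3 of limma-voom were miR-1983, miR-6538 and miR-703. With edgeR the 3 were miR-6538 (log2 -1.49 ± 0.42, adjusted p = 0.888), miR-1983 (-1.03 ± 0.35, adjusted p = 0.951) and miR-5100 (-1.06 ± 0.40, adjusted p = 0.951). miR-6538 had 15.7 and 16.7 CPM in ob/ob and ob/+ colon, against 38.0 and 52.5 CPM in ob/ob and ob/+ jejunum. Its counts were 5 and 11 in colon and 16 and 23 in jejunum.

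Within ob/ob 0 of the 26 stood 2-fold or more above jejunum in colon (4.97% of 322) and 2 as far below (2.8%), miR-6538 and miR-703. Within ob/+ 0 stood above by as much (3.73%) and 7 below (8.07%), namely miR-1983, miR-3470a, miR-3963, miR-5100, miR-5126, miR-6538 and miR-709. In ob/+ miR-3963 had 22.8 CPM in colon, against 86.7 CPM in jejunum (log2 -1.75, interval -2.90 to -1.03), whereas in ob/ob it had 195 CPM in colon, against 176 CPM in jejunum (0.15, -0.36 to 0.66). miR-3470a had 22.8 CPM in ob/+ colon, against 54.8 CPM in ob/+ jejunum (-1.12, -2.30 to -0.28), and 139 CPM in ob/ob colon, against 168 CPM in ob/ob jejunum (-0.27, -0.86 to 0.28). miR-3535 was lower in ob/ob colon than in ob/ob jejunum (-0.85, -1.23 to -0.50) and had 0.24 (-0.03 to 0.52) in ob/+. Whether these tissue ratios differ between the genotypes was not tested, since each rests on 1 pool.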

How the data were processed

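Small RNA of sorted cells was sequenced in 4 pooled libraries. Per the file headers, 3' adapters were trimmed, reads shorter than 15 nt were dropped and the mappable rest was assigned to miRBase 20 on mm9. No aligner, counter or scaling rule is named in the sources used here. Deposited by the authors were estimated counts, together with a normalized signal that is each count times a library factor. A deposited sheet gives other values, namely read numbers by step. Small-intestine columns were taken as the jejunal libraries. Members and lists were chosen with earlier results of these data known.

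Counts were rounded and scaled by TMM over all entries. Those averaging 10 CPM or more were tested in edgeR 4.0.16 (quasi-likelihood, genotype plus tissue), with DESeq2 1.42.0 and limma 3.58.1 as alternatives. In the main fit prior degrees of freedom came to 3.85 and the biological coefficient of variation to 17.3%. Prior degrees of freedom were infinite with mappable reads, median-of-ratios scaling or the authors' factors. They were also infinite at 100 CPM, without hairpin-named entries and with TMM from the tested entries. Ratios within a tissue used a prior count of 2 and exact binomial 95% intervals (scipy 1.17.1). These intervals and the floor of 3 counts cover counting error alone, because each group is 1 pooled library. PCR copies were not marked by molecular identifiers, so even that error may be understated. One count was worth 1.40 to 3.74 CPM by library total. Named were all tested entries, those sharing a number with them, the 10 most abundant and examples of the rule. Exact matches were sought in GENCODE vM21 transcripts. Alternatives were other scalings, filters, tools, prior counts and thresholds, no tissue term, and leaving out each library with no tissue term. TMM from the tested entries was added after seeing the data.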

Additional observations from a re-analysis of the deposited data

How the results depend on the processing

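The 8 entries called higher in ob/ob numbered 13 under median-of-ratios scaling, 13 under the authors' factors, 14 without hairpin-named entries, 14 with TMM factors from the tested entries, 4 of 10 at 100 CPM, 2 of 53 at 3 CPM, 0 of 137 with no filter and 4 with limma-voom. With TMM factors from the tested entries, 53 of 282 entries with an arm suffix and 10 of 13 hairpin-named ones were called higher too. In the main fit these were 12 and 5. Where no share over all tested entries is given, such counts cannot tell a change of these entries from one of the whole table. With 1 library left out, the number called changed with the library. Those fits had no tissue term, so genotype and tissue were partly mixed. A lone library is then assumed to vary like the others. Called lower were 4 scaled to mappable reads and 0 under every other setting. Over these settings the adjusted p of miR-3470b ran up to 0.100, of miR-690 up to 0.577. The tissue effect gave 0 calls of entries without a suffix under every setting run.

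The sign turned scaled to mappable reads for miR-28c (-0.56), miR-378d (-0.71), miR-3968 (-0.33) and miR-6240 (-0.19), and for miR-3535 with library totals (0.032) or TMM from the tested entries (0.038). With 1 library left out at a time the log2 change ran between -0.52 and 0.31 for miR-3473b, -0.62 and 0.36 for miR-3535, -0.40 and 0.066 for miR-378c, -0.063 and 0.49 for miR-378d, -1.41 and 0.47 for miR-5126, and -1.06 and 0.88 for miR-6538. Of 426 alternatives for the 26, 330 kept direction and side of the threshold, 43 lost and 39 gained a call. The cause was not tested.

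Counts at least 2-fold different moved mainly with the filter and the threshold. Higher in ob/ob jejunum (7) became 2 scaled to mappable reads, 19 with no filter, 1 at 100 CPM, 14 at 3 CPM, 14 at 1.5-fold and 2 at 4-fold; lower there (3) became 6, 9, 0 and 7 under the first 4 of these, 0 with a prior count of 5 and 0 at 4-fold. Higher in ob/ob colon (14) became 9, 29, 4 and 23 under the first 4, and 7 at 4-fold; lower there (0) became 5 scaled to mappable reads, 4 with no filter, 2 at 3 CPM and 1 at 1.5-fold. Higher in colon within ob/ob (0) became 7 with no filter, 2 at 3 CPM and 2 at 1.5-fold; lower (2) became 1 with library totals, mappable reads, the authors' factors or a prior count of 5, 13 with no filter, 0 at 100 CPM, 6 at 3 CPM, 6 at 1.5-fold and 0 at 4-fold. Within ob/+ higher (0) became 1 with no filter, and lower (7) became 14 with no filter, 1 at 100 CPM, 12 at 3 CPM, 14 at 1.5-fold and 0 at 4-fold. Relative to TMM, mappable reads moved the median log2 ratio of the tested entries by -0.77 for jejunum and -0.87 for colon, and library totals by 0.35 for colon.

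The share of miRNA counts in ob/ob jejunum, ob/+ jejunum, ob/ob colon and ob/+ colon became 0.435%, 0.254%, 0.465% and 0.212% without miR-5099, and 0.253%, 0.142%, 0.263% and 0.0974% without the 5 most abundant entries. Of mappable reads it was 0.0732%, 0.0832%, 0.0721% and 0.0716%. The labels give no replicate numbers to block on, but the tissue term sets ob/ob against ob/+ within each tissue; without that term 9 entries were called higher and 0 lower.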
